A study of Penicillium oxalicum with 6 samples.

Results

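The genes described here are 34 genes of Penicillium oxalicum that sit in 6 blocks of consecutive gene ID numbers, out of 9834 genes in the deposited tables. The blocks run from POX03927 to POX03931, POX06599 to POX06603, POX07618 to POX07622, POX08895 to POX08899, POX09332 to POX09340 and POX09353 to POX09357. They were chosen from the measured values: in a comparison of the same 6 libraries, every gene of a run of at least 5 consecutive numbers was called at least 2-fold higher in the Avicel-labelled libraries. That difference between the groups is therefore given as a description, with no test. The run behind the last block began at POX09352, which is not counted among the members and is described with the flanking genes.

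Penicillium oxalicum is a filamentous fungus that secretes enzymes for the breakdown of plant biomass. According to the sample labels, mycelium came from the strain MuKu70, described as mutant Ku70. Ku70 is a DNA end-joining protein whose loss eases gene targeting in fungi. The mycelium was cultured for 4 hours in liquid medium with 1% Avicel, a microcrystalline cellulose (3 libraries), or 1% wheat bran (3 libraries). Wheat bran is a plant material that also holds hemicellulose and starch. For both groups alike, the sample records list 6 days on PDA (potato dextrose agar), 1.0 g of hyphae and 100 mL of medium. They also list 28 °C and shaking at 180 rpm. The 4 hours were thus not the whole of the growth. The libraries of each group carry the letters F, S and T, and nothing in the labels says that they came from separate cultures, so their spread may be technical. The series title instead names a deletion mutant of POX07277 moved from glucose to Avicel for 24 hours. POX07277 had 427, 375 and 331 counts in the Avicel-labelled libraries and 0 counts in all 3 bran-labelled libraries. The naming of the deposited values points to POX07277 and 24 hours too, as the title does, rather than to 4 hours. Labels and title thus disagree, and a difference in strain and one in medium cannot be told apart. Each direction given is that between the groups as labelled.

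In filamentous fungi, genes that serve a common pathway often lie side by side on a chromosome and are switched on together. Clusters for specialised (secondary) metabolites are the best known case: they join a very long gene for a backbone enzyme, such as a polyketide synthase or a nonribosomal peptide synthetase, with shorter genes for tailoring enzymes, transporters and a regulator. Genes for the use of a sugar or of a plant polymer can also be neighbours. The deposited tables hold IDs without names, so no function is given to any member, and whether consecutive numbers are neighbours on a chromosome is not given in the sources used here.

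The libraries held 13176152 to 14598919 expected counts. On the second principal component, with 6.27% of the variance, Avicel-labelled replicate F stood apart from replicates S and T, at 22.4 against -9.56 and -12.8. Values without this library are given for block POX06599 to POX06603 and for POX09357, POX09345 and POX09360. They are not given for every gene in which it stood apart. These are bulk libraries of mycelium, in which fewer cells of a kind and less RNA per cell cannot be told apart.

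Together the 34 genes took 1.10% ± 0.131 of all counts in the Avicel-labelled libraries and 0.180% ± 0.0370 in the bran-labelled libraries (SD, n = 3 each). The share was 0.994%, 1.06% and 1.25% in Avicel-labelled replicates F, S and T, and 0.142%, 0.216% and 0.183% in the bran-labelled libraries. All 34 genes passed the filter on low counts, all were called at least 2-fold higher in the Avicel-labelled libraries, and in all of them the groups did not overlap. Among all 8636 tested genes the call was made for 7.03%, and the groups lay apart in this direction for 32.0%. Since the members were picked by this call, nothing is read from their count. Their median log2 fold change was 2.32, against 0.01 over all tested genes. Changes ran from 1.01 for POX08896, just inside the 2-fold limit, to 6.13 for POX03931, and 22 of the 34 were at 4-fold or more.

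In level per gene length (FPKM, reads per kilobase of gene and library size), the members had a median of 69.7 in the Avicel-labelled libraries and 14.1 in the bran-labelled libraries. The medians of all tested genes were 28.1 and 28.7. In the Avicel-labelled libraries, 29 of the 34 lay above the median of all tested genes and 9 were among the 1000 highest genes. In the bran-labelled libraries, 12 lay above the median and 0 were among the 1000 highest, but all 34 were still read in each of the 3 libraries. The members thus ranged from genes that were low in both groups, mostly in block POX08895 to POX08899, to genes that ranked among the most abundant in the Avicel-labelled libraries.

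**Figure D1:**
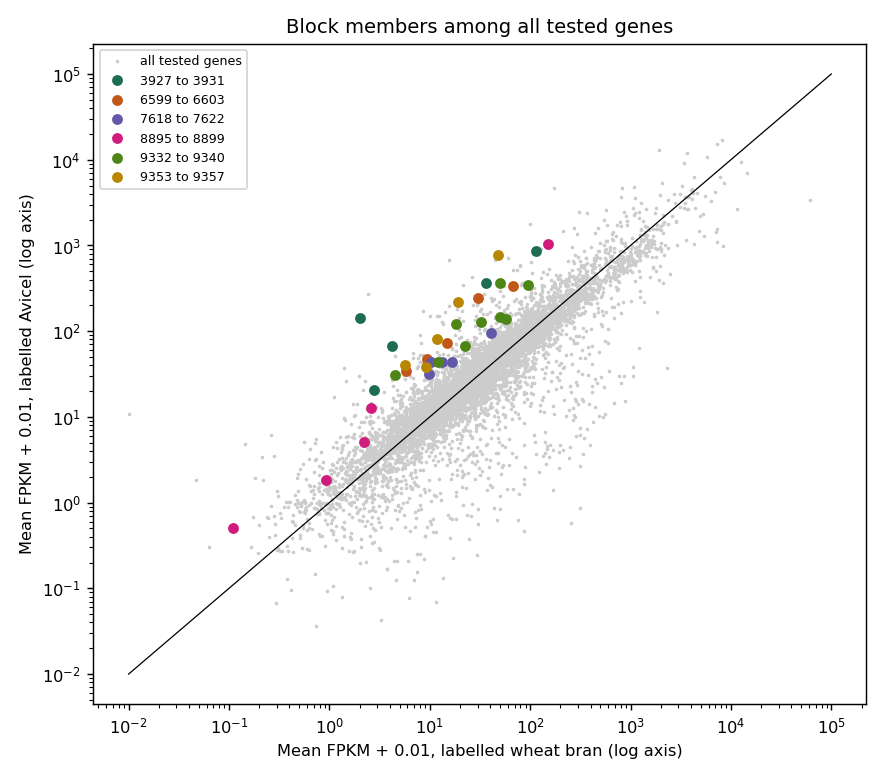
Mean FPKM of each tested gene in the 3 Avicel-labelled libraries (y axis) against the 3 bran-labelled libraries (x axis), both log axes with 0.01 added; grey points are all 8636 tested genes, coloured points the 34 members by block, and the line marks equal levels. The members lie above the line at all levels, from POX08899 at the lower left to POX08897 at the upper right, which have mean FPKM of 0.493 and 1036 in the Avicel-labelled libraries.

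The blocks differed in the size of the difference. The summed level of a block in CPM (counts scaled to library size, TMM-normalised) was 15.7 times higher in the Avicel-labelled libraries for block POX03927 to POX03931, 11.8 times for POX09353 to POX09357 and 6.73 times for POX08895 to POX08899. It was 5.98 times higher for POX06599 to POX06603, 4.08 times for POX09332 to POX09340 and 3.13 times for POX07618 to POX07622. In the bran-labelled libraries, the 5 blocks of 5 genes had much the same summed level, with means of 148 to 175 CPM, so their order was set by the Avicel-labelled libraries, with means of 549 to 2621 CPM. Block POX09332 to POX09340 was the most abundant in both groups, at 3952 ± 1441 CPM and 969 ± 271 CPM (SD, n = 3 each), and it has 9 genes. Even the lowest Avicel-labelled library stood above the highest bran-labelled library, by 10.1 times in blocks POX03927 to POX03931 and POX09353 to POX09357 and by 2.002 times in POX09332 to POX09340.

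**Figure D2:**
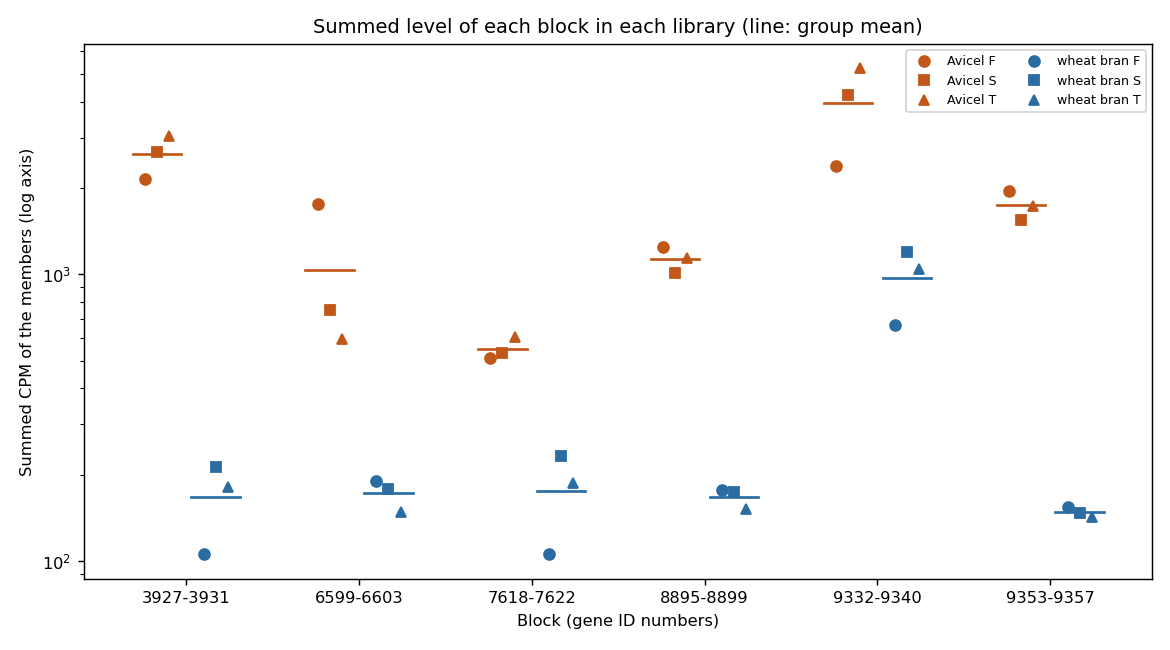
Summed CPM of the members of each block (y axis, log) in each of the 6 libraries, with a line at the mean of the 3 libraries of a group. The groups lie apart in every block, and the Avicel-labelled libraries spread most in blocks POX06599 to POX06603 and POX09332 to POX09340, where replicate F is, respectively, the highest and the lowest of its group.

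Block POX03927 to POX03931 held the member with the largest difference. POX03931 stood at 90.1, 153 and 181 FPKM in Avicel-labelled replicates F, S and T and at 1.05, 2.31 and 2.67 FPKM in the bran-labelled libraries. By mean FPKM it ranked 8355th of all genes in the bran-labelled libraries and 1074th in the Avicel-labelled ones, a log2 fold change of 6.13 (SE 0.44) or 70.0-fold. Its effective length, implied by the ratio of counts to FPKM, was 9934 bases, the second longest of the members. POX03930 was the most abundant gene of the block per length, at 954, 744 and 854 FPKM in the Avicel-labelled libraries and 74.3, 154 and 116 FPKM in the bran-labelled libraries. It was already well read in the bran-labelled libraries and differed less, by a log2 fold change of 2.89 (SE 0.26).

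The makeup of this block therefore differed between the groups. POX03931 took 53.6% of the reads of the block in the Avicel-labelled libraries and 12% in the bran-labelled libraries, while the share of POX03930 was 30.1% and 63.8%. The ratio of POX03931 to POX03930 counts within a library, a pair chosen after the values were seen, was 1.01, 2.21 and 2.28 in Avicel-labelled replicates F, S and T and 0.152, 0.161 and 0.248 in the bran-labelled libraries. The ratios of the groups did not overlap. The pair joins the largest log2 fold change of the block with a far smaller one, so this gap follows largely from the choice and nothing is read from it. Replicate F had the lowest ratio of the Avicel-labelled libraries. The smallest difference in the block was that of POX03928, at 20.5, 19.7 and 21.7 FPKM under the Avicel label and 2.23, 3.42 and 2.76 FPKM under the bran label (log2 fold change 2.88, SE 0.15). POX03927 and POX03929 lay between, with log2 fold changes of 3.98 (SE 0.30) and 3.32 (SE 0.22).

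**Figure D3:**
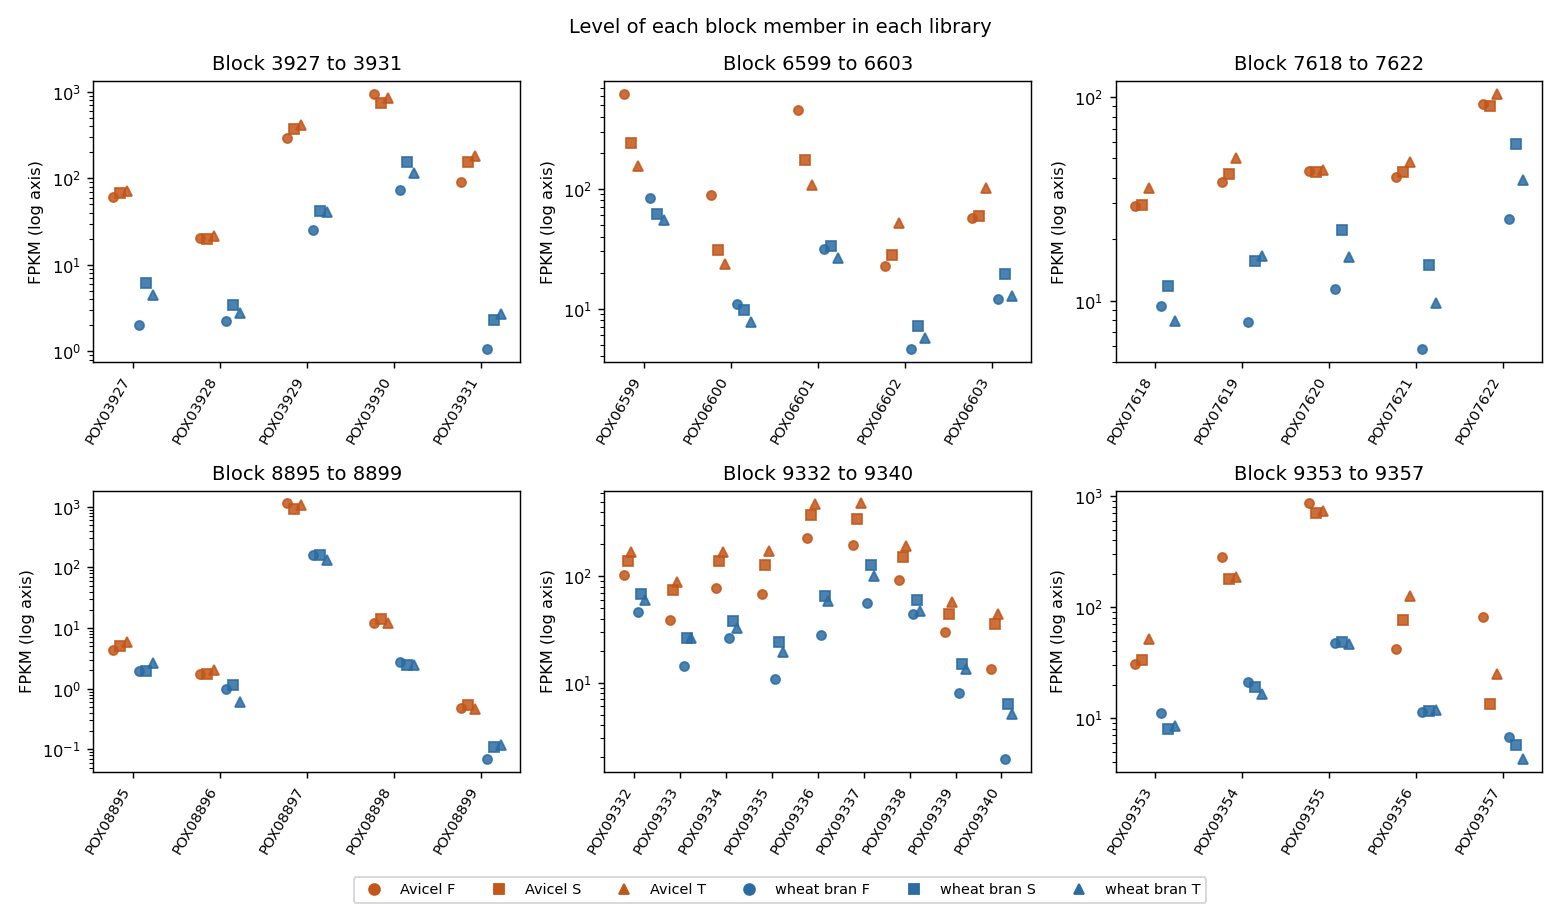
FPKM of each member (y axes, log) in each library, 1 panel per block; orange marks the 3 Avicel-labelled libraries, blue the 3 bran-labelled libraries, and the shape gives the letter F, S or T. In every gene the orange points lie above the blue ones, with the widest gap at POX03931 and the narrowest at POX09333.

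Block POX09353 to POX09357 had the next largest difference, and the same gene took the largest share of its reads in both groups. POX09355 stood at 863, 706 and 733 FPKM in Avicel-labelled replicates F, S and T and at 47.5, 48.1 and 46.3 FPKM in the bran-labelled libraries. Both groups were narrow, and the log2 fold change of 4.02 (SE 0.12) was the largest of the block. POX09355 took 67.3% of the reads of the block in the Avicel-labelled libraries and 49.0% in the bran-labelled libraries. POX09354 followed with a log2 fold change of 3.51 (SE 0.21), at 180 to 285 FPKM under the Avicel label and 16.5 to 21.3 FPKM under the bran label. The smallest difference was that of POX09353, at 30.6, 33.8 and 51.6 FPKM under the Avicel label and 11.1, 8.0 and 8.46 FPKM under the bran label (log2 fold change 2.07, SE 0.21).

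The remaining genes of this block, POX09356 and POX09357, varied more among the Avicel-labelled than among the bran-labelled libraries. POX09356 stood at 42.1, 76.1 and 127 FPKM in Avicel-labelled replicates F, S and T and at 11.4, 11.7 and 11.9 FPKM in the bran-labelled libraries. POX09357 went the other way, at 81.7, 13.6 and 24.8 FPKM under the Avicel label against 6.82, 5.75 and 4.30 FPKM under the bran label. Replicate F was thus the lowest library for POX09356 and the highest for POX09357. Without Avicel-labelled replicate F, the log2 fold change of POX09357 was 1.76 (SE 0.26) in place of 2.84 (SE 0.63).

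Block POX08895 to POX08899 was in reads almost a single gene. POX08897 stood at 1139, 912 and 1057 FPKM in the Avicel-labelled libraries and at 161, 158 and 133 FPKM in the bran-labelled libraries, a log2 fold change of 2.78 (SE 0.13). It took 98.2% of the reads of the block in the Avicel-labelled libraries and 96.3% in the bran-labelled libraries, and it was the member with the highest level, at rank 135 of all genes. The other 4 genes stood at means of 0.493 to 12.7 FPKM in the Avicel-labelled libraries and 0.100 to 2.57 FPKM in the bran-labelled libraries. POX08898 was the clearest of them, at 11.9, 14 and 12.2 FPKM against 2.76, 2.5 and 2.46 FPKM (log2 fold change 2.30, SE 0.16).

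The weakest members of this block rested on few reads. POX08899 had 29, 32 and 28 counts in Avicel-labelled replicates F, S and T and 4, 6 and 7 counts in the bran-labelled libraries (log2 fold change 2.26, SE 0.27). Its lowest count lay just above the 3 counts that a count of 0 allows. POX08896 had 46, 46 and 53 counts in the Avicel-labelled libraries and 24, 28 and 15 counts in the bran-labelled libraries. Its log2 fold change of 1.01 (SE 0.24) fell under the 2-fold limit without replicate T of either group, to 0.95 and 0.79. POX08895 had a log2 fold change of 1.21 (SE 0.20), so POX08895 and POX08896, the first genes of the block by number, differed least and the other 3 by 2.26 to 2.78.

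Block POX06599 to POX06603 fell into 2 parts by library. POX06599 stood at 622, 242 and 154 FPKM in Avicel-labelled replicates F, S and T and at 84.2, 61.5 and 54.7 FPKM in the bran-labelled libraries. POX06601 stood at 459, 175 and 107 FPKM under the Avicel label and at 31.6, 33.5 and 26.4 FPKM under the bran label. POX06600 had the same order, and in all 3 genes replicate F was 3.81 to 4.38 times replicate T, the lowest of the group.

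POX06602 and POX06603 had the opposite order. The former stood at 22.8, 27.9 and 52.1 FPKM in Avicel-labelled replicates F, S and T and at 4.57, 7.11 and 5.66 FPKM in the bran-labelled libraries. For POX06603 the values were 56.8, 59.5 and 101 FPKM against 12.1, 19.4 and 12.8 FPKM. In both genes replicate T was the highest of the Avicel-labelled libraries and replicate F the lowest. As a result the ratio of POX06601 to POX06602 counts, a pair chosen after the values were seen, was 19.8, 6.18 and 2.01 in Avicel-labelled replicates F, S and T, a wider range than the 4.59 to 6.8 in the bran-labelled libraries.

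The log2 fold changes in this block ran from 2.29 (SE 0.26) for POX06603 to 3.02 (SE 0.50) for POX06601. Leaving out Avicel-labelled replicate F lowered POX06599 from 2.35 (SE 0.48) to 1.57 (SE 0.22), POX06600 from 2.34 (SE 0.48) to 1.52 (SE 0.16) and POX06601 to 2.21 (SE 0.20), while POX06602 and POX06603 stood at 2.78 and 2.44. Without Avicel-labelled replicate T, POX06602 and POX06603 stood at 2.15 and 1.996 and the other genes at 2.67 to 3.40. The gap between the largest and the smallest log2 fold change of the block was 0.73 with all libraries, 1.26 without Avicel-labelled replicate F and 1.40 without replicate T. The log2 ratio of the summed level of the block was 2.58 with all libraries and 1.96 without Avicel-labelled replicate F. All 5 genes stayed called at 2-fold or more.

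Block POX09332 to POX09340, the longest, was made of genes that moved together between the libraries of a group as well as between the groups. In all 9 genes replicate F was the lowest and replicate T the highest of the Avicel-labelled libraries, and replicate F was also the lowest of the bran-labelled libraries. Over all tested genes, replicate F was the lowest of its group in both groups for 15.2%. The summed level of the block was 2390, 4234 and 5230 CPM in Avicel-labelled replicates F, S and T and 668, 1194 and 1044 CPM in the bran-labelled libraries. Replicate F was thus at 0.505 and 0.597 times the mean of the other libraries of its group. The libraries are shared by all 9 genes, so these are not independent observations.

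POX09336 had the largest log2 fold change of this block, 2.83 (SE 0.37), and the highest mean FPKM in the Avicel-labelled libraries. It stood at 229, 376 and 479 FPKM in Avicel-labelled replicates F, S and T and at 28.3, 64.6 and 58.9 FPKM in the bran-labelled libraries. The smallest log2 fold change was that of POX09332, 1.25 (SE 0.21), at 103, 139 and 169 FPKM under the Avicel label and 45.7, 67.4 and 59.4 FPKM under the bran label. POX09333 had the narrowest gap between the groups, with its lowest Avicel-labelled library at 1.47 times its highest bran-labelled library. Along the numbers, the log2 fold changes increased from POX09332 to POX09336 and were smaller again for POX09337 to POX09339 (1.53 to 1.85).

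POX09340, the last gene of this block, had the largest implied length of all members, 22549 bases. It stood at 13.4, 35.8 and 44.4 FPKM in Avicel-labelled replicates F, S and T and at 1.93, 6.35 and 5.07 FPKM in the bran-labelled libraries. It was the most variable gene of the block within both groups, with a highest library 3.25 times the lowest among the Avicel-labelled libraries and 3.30 times among the bran-labelled libraries. Its log2 fold change was 2.80 (SE 0.54).

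Block POX07618 to POX07622 had the smallest differences and the most even levels. Its mean FPKM ran from 31.4 to 95.3 in the Avicel-labelled libraries, a 3.03-fold range over the 5 genes. POX07622, the highest, stood at 92.1, 90.04 and 104 FPKM in Avicel-labelled replicates F, S and T and at 25.1, 59.1 and 39.2 FPKM in the bran-labelled libraries, and had the smallest log2 fold change (1.21, SE 0.26). Without bran-labelled replicate F that value was 0.95, under the 2-fold limit. POX07621 had the largest, 2.103 (SE 0.30), at 40.6, 42.7 and 48.1 FPKM under the Avicel label against 5.76, 15 and 9.77 FPKM under the bran label. POX07620 was the steadiest of the members in the Avicel-labelled libraries, at 43.2, 42.6 and 43.7 FPKM.

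Here the spread lay in the bran-labelled libraries. The summed level of the block was 510, 533 and 602 CPM in Avicel-labelled replicates F, S and T and 105, 233 and 187 CPM in the bran-labelled libraries. Bran-labelled replicate F was the lowest of its group for 4 of the 5 genes here, and for all 5 genes of block POX03927 to POX03931 and all 9 of block POX09332 to POX09340. For blocks POX06599 to POX06603, POX08895 to POX08899 and POX09353 to POX09357 it was the lowest for 2 genes each. Over all tested genes, replicate F was the lowest of the bran-labelled libraries for 35.8%.

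Some members also differed by 2-fold or more between libraries of a single group. Among the Avicel-labelled libraries, 13 of the 34 members had a highest library at least 2 times the lowest, against 6.76% of all tested genes. Of these 13 genes, 7 lay in block POX09332 to POX09340, 4 in POX06599 to POX06603 and 2 in POX09353 to POX09357. Among the bran-labelled libraries it was 10 of the 34, against 2.69%, with 4 in block POX09332 to POX09340 and 3 each in POX03927 to POX03931 and POX07618 to POX07622. Genes of a block share their libraries and often their order, so these counts stand for few independent observations, and they were not tested.

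**Figure D4:**
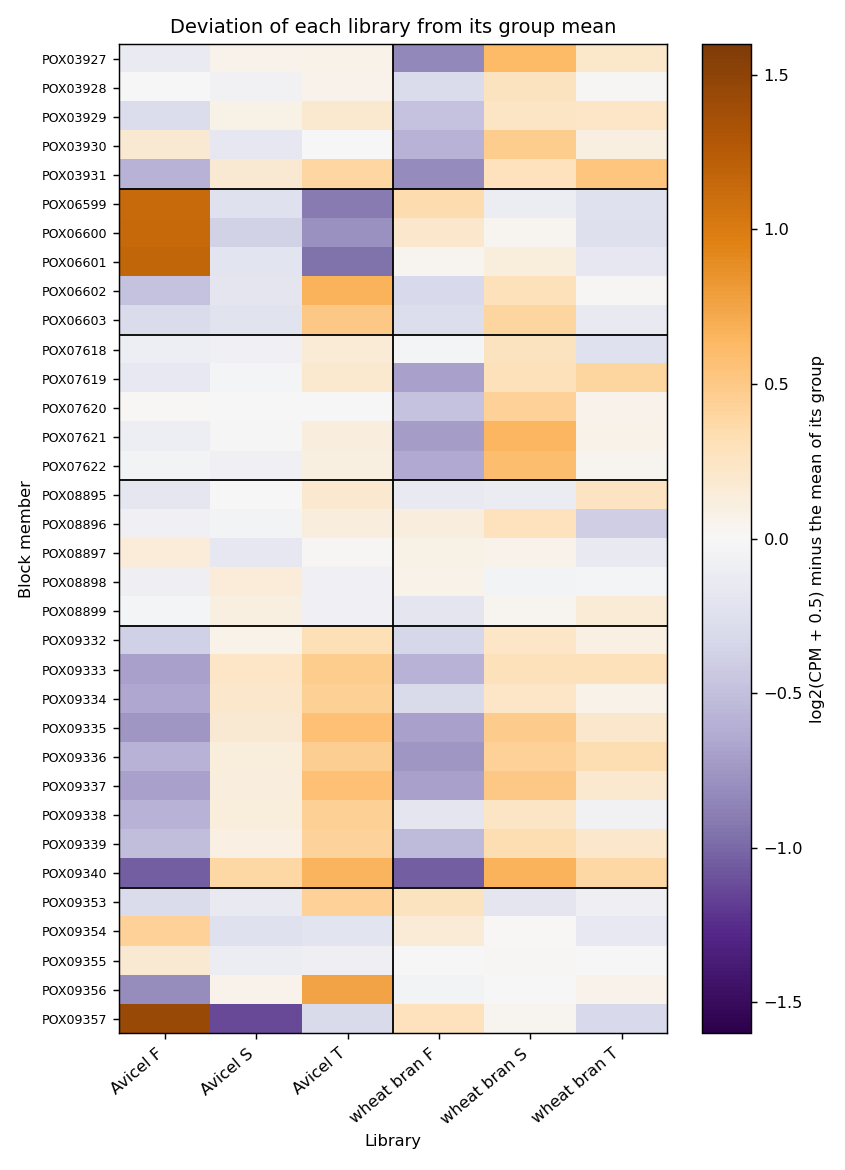
Deviation of each library (columns) from the mean of its own group, in log2(CPM + 0.5), for each member (rows, with lines between blocks); orange is above the group mean and purple below. Block POX09332 to POX09340 is purple in replicate F of both groups, and block POX06599 to POX06603 divides into 3 genes that are orange and 2 that are purple in Avicel-labelled replicate F.

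Within a block, the order of the genes by FPKM was largely the same in both groups. Pairs of other genes were not counted, so this is not read as a trait of the blocks. Of the pairs of genes in a block, the same gene was the higher in both groups for 10 of 10 pairs in blocks POX06599 to POX06603 and POX08895 to POX08899, for 9 of 10 in POX09353 to POX09357 and for 32 of 36 in POX09332 to POX09340. In blocks POX03927 to POX03931 and POX07618 to POX07622 it was 8 and 7 of 10. The levels within a block were far from equal: in the Avicel-labelled libraries the highest gene stood 41.2 times above the lowest in block POX03927 to POX03931, 19.8 times in POX09353 to POX09357, 11.6 times in POX09332 to POX09340 and 9.90 times in POX06599 to POX06603. In block POX08895 to POX08899 it was 2100 times.

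Several members were long genes, a property the choice of the blocks did not use directly. An implied length was obtained for 33 members, all but POX08899, which was too weakly read. Of these, 6 were longer than 4000 bases (18.2%), against 3.62% of the 8443 tested genes with a length. The 6 were POX03931, POX07619, POX09332, POX09334, POX09335 and POX09340, so that 4 of them lay in block POX09332 to POX09340 and none in blocks POX06599 to POX06603, POX08895 to POX08899 and POX09353 to POX09357. The median over members was 1532 bases, against 1252 bases over tested genes. The difference was not tested. With the length trend of each library removed, the log2 ratio of block POX09332 to POX09340 was 1.85 in place of 2.03. All expected counts of the 34 members were whole numbers, so no reads divided between similar genes were seen there. The same held for all but 83 of the 8636 tested genes, so it is not particular to the members.

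The edges of the blocks differed in how steep they were. Of the 12 genes just outside a block, 6 were called higher in the Avicel-labelled libraries at any fold, 1 of them at least 2-fold. Another 1 was called at least 2-fold lower. Over all tested genes, 27.5% were called higher at any fold. Some steps were small: POX08894 at 0.81 adjoined POX08895 at 1.21, and POX07623 at 0.62 adjoined POX07622 at 1.21. Just below the blocks, POX03926 and POX07617 had log2 fold changes of -0.47 (SE 0.09) and -0.68 (SE 0.20), and POX09331 had 0.06 (SE 0.10), at 547 ± 11.9 FPKM under the Avicel label and 526 ± 47.1 FPKM under the bran label (SD, n = 3 each). POX06598 and POX08894 had 0.57 (SE 0.12) and 0.81 (SE 0.13). Just above, POX03932, POX07623, POX08900 and POX09341 had log2 fold changes of 0.25 to 0.62. POX06604 was lower in the Avicel-labelled libraries, at 27.2, 26.5 and 33.8 FPKM in replicates F, S and T against 79.1, 75.3 and 72.0 FPKM in the bran-labelled libraries, a log2 fold change of -1.37 (SE 0.10), next to POX06603 at 2.29. These edges were set by the same comparison.

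**Figure D5:**
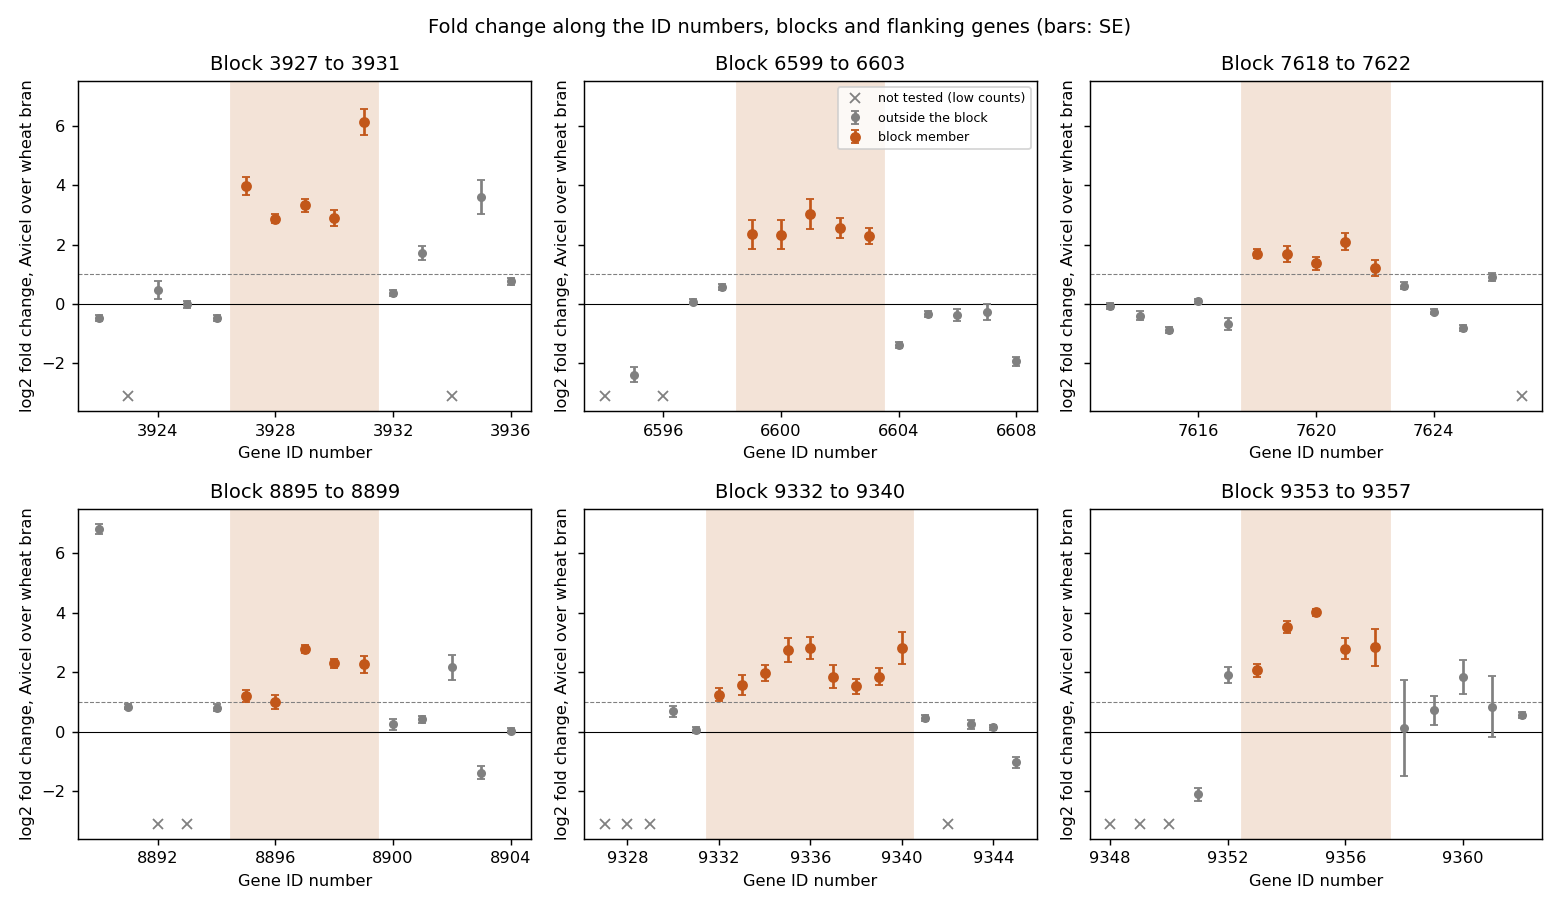
log2 fold change, Avicel over wheat bran (y axis), against gene ID number (x axis) for each block (shaded) and 5 numbers to either side; bars are the SE of the edgeR fit, the dashed line marks 2-fold, and crosses are genes not tested for low counts, drawn at an arbitrary height. Outside the shading, POX03933, POX03935, POX08890, POX08902, POX09352 and POX09360 lie at 2-fold or more above 0, and POX06595, POX06604, POX06608, POX08903, POX09345 and POX09351 at 2-fold or more below.

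Of the 62 genes within 5 numbers of a block or between blocks POX09332 to POX09340 and POX09353 to POX09357, 48 were tested, 6 were called at least 2-fold higher and 6 at least 2-fold lower in the Avicel-labelled libraries. Over all tested genes the share was 7.03% higher and 9.41% lower. The median log2 fold change of these neighbours was 0.13. The largest was that of POX08890, 5 numbers below block POX08895 to POX08899, with 273 ± 33.0 FPKM under the Avicel label against 2.41 ± 0.627 FPKM under the bran label (SD, n = 3 each; log2 fold change 6.82, SE 0.18). Between it and the block, POX08891 and POX08894 were higher by less than 2-fold and the other 2 genes were too weakly read to be tested.

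Beyond block POX03927 to POX03931, POX03933 and POX03935 were also higher, with log2 fold changes of 1.72 (SE 0.24) and 3.61 (SE 0.57). POX03935 stood at 56.9, 122 and 275 FPKM in Avicel-labelled replicates F, S and T, so its level varied among these libraries more than that of any member of the block, and at 10.8 to 13.5 FPKM in the bran-labelled libraries. Without Avicel-labelled replicate T its log2 fold change was 2.88. The remaining calls upward were POX08902 (2.16, SE 0.41), POX09352 and POX09360. POX09360, with 1.83 (SE 0.57), lost its call without bran-labelled replicate S or T and fell to 0.88 without Avicel-labelled replicate F.

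The last blocks by number are 12 genes apart, and those 12 did not form a bridge between them. Of the 8 tested, POX09352 was called at least 2-fold higher, with a log2 fold change of 1.90 (SE 0.27). It stood at 49.7, 44.9 and 95.0 FPKM in Avicel-labelled replicates F, S and T against 16.0, 17.3 and 17.2 FPKM in the bran-labelled libraries. POX09341 was called higher by less than 2-fold, at 0.45 (SE 0.10). POX09345 and POX09351 were at least 2-fold lower, with log2 fold changes of -1.04 (SE 0.18) and -2.11 (SE 0.21). POX09345 fell under the 2-fold limit without Avicel-labelled replicate F or T or bran-labelled replicate F, at -0.98, -0.87 and -0.96. POX09352 continues block POX09353 to POX09357, and POX09351 next to it has the opposite direction. The blocks on either side also differed in their libraries: Avicel-labelled replicate F was the lowest for all 9 genes of the first and for 2 of 5 genes of the second.

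Directly above block POX09353 to POX09357, the spread between libraries seen in POX09357 went on. POX09358 stood at 10943, 89.7 and 86.9 FPKM in Avicel-labelled replicates F, S and T and at 4919, 4748 and 728 FPKM in the bran-labelled libraries. The groups overlapped widely, and the log2 fold change of 0.11 (SE 1.61) says little about them. POX09361 had the same order, at 2282, 164 and 155 FPKM under the Avicel label and 713, 569 and 177 FPKM under the bran label. POX09359, POX09360 and POX09363 were also 3.71 to 4.22 times higher in the highest than in the lowest Avicel-labelled library, with replicate F the highest, whereas POX09362 differed by 1.14 times. The choice of these genes was made with their values in view. Their counts were whole in all libraries, as were those of all but 83 of the 8636 tested genes.

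Runs of the same kind in the other direction numbered 7 and held 62 genes. In 6 of them the median FPKM in the Avicel-labelled libraries, where they were low, was 0.123 to 4.80; the other, numbered POX01170 to POX01176, stood at 1284. In the blocks described here the median FPKM in the bran-labelled libraries, where they were low, was 2.19 to 32.4. Both kinds of run were chosen by the same comparison, and the difference between them was not tested.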

How the data were processed

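RNA sequencing gave 6 mycelium libraries, grouped by their sample titles. RSEM 1.2.12, Bowtie2 2.1.0, BWA 0.7.10-r789 and DESeq2 are listed per the submitters' processing notes, without their roles. Build, annotation and strand: not given in the sources used here. Reads of overlapping genes may therefore be mixed. The authors deposited an expected count (an estimated read number, not normalized; 99.2% were whole) and FPKM, which the authors scaled for gene length and library size. The deposited TPM column of bran-labelled replicate T was not used.

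Expected counts were rounded and tested over all genes in R 4.3.3 by edgeR 4.0.16 (filterByExpr, TMM, quasi-likelihood F-test, Benjamini-Hochberg adjusted p under 0.05), which kept 8636 genes and removed 1198. CPM (counts scaled to library size) was TMM-normalised. The SE of a log2 fold change comes from its F statistic. Implied length is the median of count over FPKM, over libraries with an FPKM of at least 2. A count of 0 is read as at most 3 counts, for counting error only. The procedure was tested on simulated data in which genes varied independently and no library was made to stand apart, so shared spread within a block was not covered. Alternatives used DESeq2 1.42.0, limma 3.58.1 on log2(FPKM + pseudocount), other filters and scalings, a length correction and each library left out.

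None of the IDs matched the 9964 entries of the RefSeq table for ASM172317v3, so no names, positions or sequences are given. The members and lists were chosen with earlier results of these data known. Values in every library are given, by rule, for the genes of a block with the highest FPKM in the Avicel-labelled libraries and the largest and smallest fold change, for the genes at its edges where they are called, and for other genes chosen after their values were seen.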

Additional observations from a re-analysis of the deposited data

How the results depend on the processing

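The members called at 2-fold or more numbered 31 to 34 over 17 alternatives, against 34. A minimum mean FPKM of 5 removed POX08895, POX08896 and POX08899, and limma with a pseudocount of 1 or 5 did not call them; a pseudocount of 0.1 did not call POX08896. With the length trend removed, POX08896 and POX09332 (log2 fold change 0.99) fell under the limit and POX08899 had no length. Called neighbours numbered 4 to 8, against 6. The log2 ratios of the 6 blocks moved by less than the spread between libraries throughout; that of block POX06599 to POX06603 ranged from 1.96 to 2.87. The range of log2 fold changes within a block moved more. For block POX08895 to POX08899 it was 1.77, but 0.48 with a minimum mean FPKM of 5, since only 2 of its genes remained, and 2.33 and 2.63 under limma with a pseudocount of 1 and 5. The pseudocount of 5, which shrinks the folds of weakly read genes, gave 2.62 for block POX03927 to POX03931, 0.54 for POX07618 to POX07622 and 2.28 for POX09353 to POX09357.

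With a library left out in turn the range was 3.07 to 3.57 for block POX03927 to POX03931, 0.73 to 1.40 for POX06599 to POX06603 and 1.80 to 2.24 for POX09353 to POX09357; the cause was not tested. With the letter as a replicate block, 34 members were called. Correlations between the deviations of libraries with the same letter were 0.19 (F), -0.10 (S) and 0.23 (T). For different letters they ran from -0.30 to 0.20, and 4 of 6 libraries correlated best with their own letter. The main fit did not take the letters as pairs, and whether they mark pairs was not tested. Of 540 member fold changes under alternatives, 525 moved by less than the spread between libraries and 0 changed direction. Depth limits POX08899, with 4 to 7 counts in each bran-labelled library.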
